A study of Homo sapiens with 26 samples.

Results

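The 10 genes FOS, FOSB, FOSL1, JUN, JUNB, EGR1, IER3, NR4A1, NR4A3 and SIK1 were taken by symbol from the 17687 named genes of a microarray series, and all 10 were measured, each by 1 probe set. They were chosen with earlier results of these data known, so counts of calls among them are not a test of the set. The series held 26 single-colour arrays of the human lung cancer lines NCI-H1975 (H1975), A549 and NCI-H1299 (H1299), labelled lung adenocarcinoma, which received either Omomyc protein at 12.8 µM in the medium or the vehicle alone, which the labels give as PBS (phosphate-buffered saline). Omomyc is a small MYC-derived protein that pairs with MYC and with MAX and occupies E-boxes without activating them. There were 4 PBS arrays each of H1975 and A549 and 5 of H1299, and 5, 3 and 5 Omomyc arrays, all from cells grown in RPMI1640 with glutamine and 10% FBS and treated after a night of attachment. The labels name no genotype beyond the line, no time of exposure and no control protein, so what Omomyc does and what any protein added at that dose would do cannot be told apart. Arrays of a group are labelled biological replicates, without word on whether cultures were separate, so a p-value here reflects the spread between arrays, which may be technical.

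Immediate early genes are transcribed within minutes of a stimulus from factors already present in the cell, without new protein synthesis, and most of their transcripts and proteins are short-lived. Growth factor signalling through ERK acts on them through serum response factor and its ELK partners at CArG boxes, and cyclic AMP and calcium act through CREB at cyclic AMP response elements (CRE). In lung adenocarcinoma lines the ERK pathway is often driven by mutant EGFR, as in H1975, or mutant RAS, as in A549 and H1299. FOS, FOSB and FOSL1 pair with JUN and JUNB to form the AP-1 transcription factors, EGR1 is a zinc finger factor, NR4A1 and NR4A3 are orphan nuclear receptors, IER3 is a stress-induced survival factor, and SIK1 is a kinase that restrains CREB coactivators.

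The levels are the deposited log2 values, in which 1 unit is a 2-fold difference. The 23 background probe sets had means of 2.35 to 6.69, a wide range that also holds the median level of all named genes, 6.48. Differences among values in that range are taken here as poorly measured, which was not tested. The arrays fell into 3 sets with like value distributions, called runs here although no label names them, of 9, 10 and 7 arrays. Each run held both treatments of every line, except that run 3 held no A549 Omomyc array. The epithelial keratin KRT8 was high in every line (PBS means 13.7 to 17.5), CDH1 was at 9.78 ± 0.57 (SD, n = 4) in A549 and at 3.93 or below in H1975 and H1299, and EPCAM was at 3.92 ± 0.61 (SD, n = 5) in H1299, within the background range. PTPRC of leukocytes and PECAM1 of endothelium had group means of 2.71 to 3.35, while the fibroblast gene COL1A1 was at 9.44 ± 1.14 (SD, n = 4) in H1975 with PBS and 8.30 ± 0.65 (SD, n = 5) with Omomyc. The array A549 PBS replicate 3 stood apart from the other A549 PBS arrays in most of the 10 genes, as described below, so most results are given with and without it.

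The promoters of 5 of the genes are shown first. EGR1, FOS, FOSB and NR4A3 differed most of all genes on that array, and SIK1 rose with Omomyc in H1975. Each window holds the 250 bases before the gene's start in RefSeq GRCh38.p14, 5′ to 3′ on the gene's strand. Capitals mark the CRE half-site TGACG, which reads CGTCA when it lies on the other strand, and, in EGR1 only, CArG boxes. The windows are chr5:138465229-138465478 (plus strand) for EGR1, chr14:75278578-75278827 (plus) for FOS, chr19:45467746-45467995 (plus) for FOSB, chr9:99821635-99821884 (plus) for NR4A3 and chr21:43427132-43427381 (minus) for SIK1.
EGR1: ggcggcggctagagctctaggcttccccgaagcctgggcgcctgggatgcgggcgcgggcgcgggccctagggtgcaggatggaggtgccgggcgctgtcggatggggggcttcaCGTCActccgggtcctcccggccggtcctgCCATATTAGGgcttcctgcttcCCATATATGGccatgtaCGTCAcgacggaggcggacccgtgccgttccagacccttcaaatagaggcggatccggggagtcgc
FOS: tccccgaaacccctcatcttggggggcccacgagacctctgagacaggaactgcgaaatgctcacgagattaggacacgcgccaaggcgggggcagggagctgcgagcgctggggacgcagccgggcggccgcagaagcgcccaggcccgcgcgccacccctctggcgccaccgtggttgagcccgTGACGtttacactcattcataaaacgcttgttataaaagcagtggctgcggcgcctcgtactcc
FOSB: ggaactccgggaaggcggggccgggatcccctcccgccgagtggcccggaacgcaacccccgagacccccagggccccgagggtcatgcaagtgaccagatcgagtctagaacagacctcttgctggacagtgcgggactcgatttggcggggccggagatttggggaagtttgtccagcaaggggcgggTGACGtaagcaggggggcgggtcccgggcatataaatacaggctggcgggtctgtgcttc
NR4A3: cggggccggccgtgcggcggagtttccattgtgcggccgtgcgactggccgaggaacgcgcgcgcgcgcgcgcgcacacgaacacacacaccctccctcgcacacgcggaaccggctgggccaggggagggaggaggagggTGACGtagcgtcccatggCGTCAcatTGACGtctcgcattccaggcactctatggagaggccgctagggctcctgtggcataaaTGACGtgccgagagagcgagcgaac
SIK1: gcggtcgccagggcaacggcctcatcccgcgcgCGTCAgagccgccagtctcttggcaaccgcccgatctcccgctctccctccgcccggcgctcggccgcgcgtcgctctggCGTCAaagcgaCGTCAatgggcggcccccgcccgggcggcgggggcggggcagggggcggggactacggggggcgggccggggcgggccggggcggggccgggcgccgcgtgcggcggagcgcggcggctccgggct
RefSeq windows matched 8 of the 10 genes, with 2 windows for NR4A1, 9 in all. The CRE half-site, searched on both strands, lay in 7 of these 9 windows (EGR1, FOS, FOSB, JUN, JUNB, NR4A3 and SIK1) and in 21.2% of all 35116 windows of that length. NR4A3 held 4 half-sites and SIK1 held 3, against 2 in EGR1 and 1 each in FOS and FOSB. The CArG box was found in EGR1 alone, at 2 places, and in 1.16% of all windows. None of the 9 windows held the full CRE TGACGTCA (1.65% of all windows), the AP-1 site TGACTCA (4.2%) or the MYC E-box CACGTG (6.34%). The half-site lies within the full CRE, so each full CRE would also count as a half-site. The 2 windows of NR4A1, which rose most of the 10 genes in H1975, held none of the motifs searched and are not shown. These are matches of letters in the windows that were available, not measured binding. Bases outside these windows, and any start of a gene without a window here, were not searched. NR4A1 is therefore not shown to lack these sites.

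The question put to the PBS arrays was how the lines differ in these genes before Omomyc. FOSL1 and IER3 were among the highest of all measured genes in at least one line, FOSB was near background in every line, and NR4A1, SIK1 and EGR1 differed between lines by several log2 units. Of the 10 genes, 6 differed between H1975 and A549, 6 between H1975 and H1299 and 7 between A549 and H1299 (limma adjusted p under 0.05), where 38.3%, 42.0% and 41.5% of all genes differed. Leaving out A549 PBS replicate 3 gave 8, 6 and 7, against 37.0%, 42.1% and 39.9% of all genes.

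**Figure D1:**
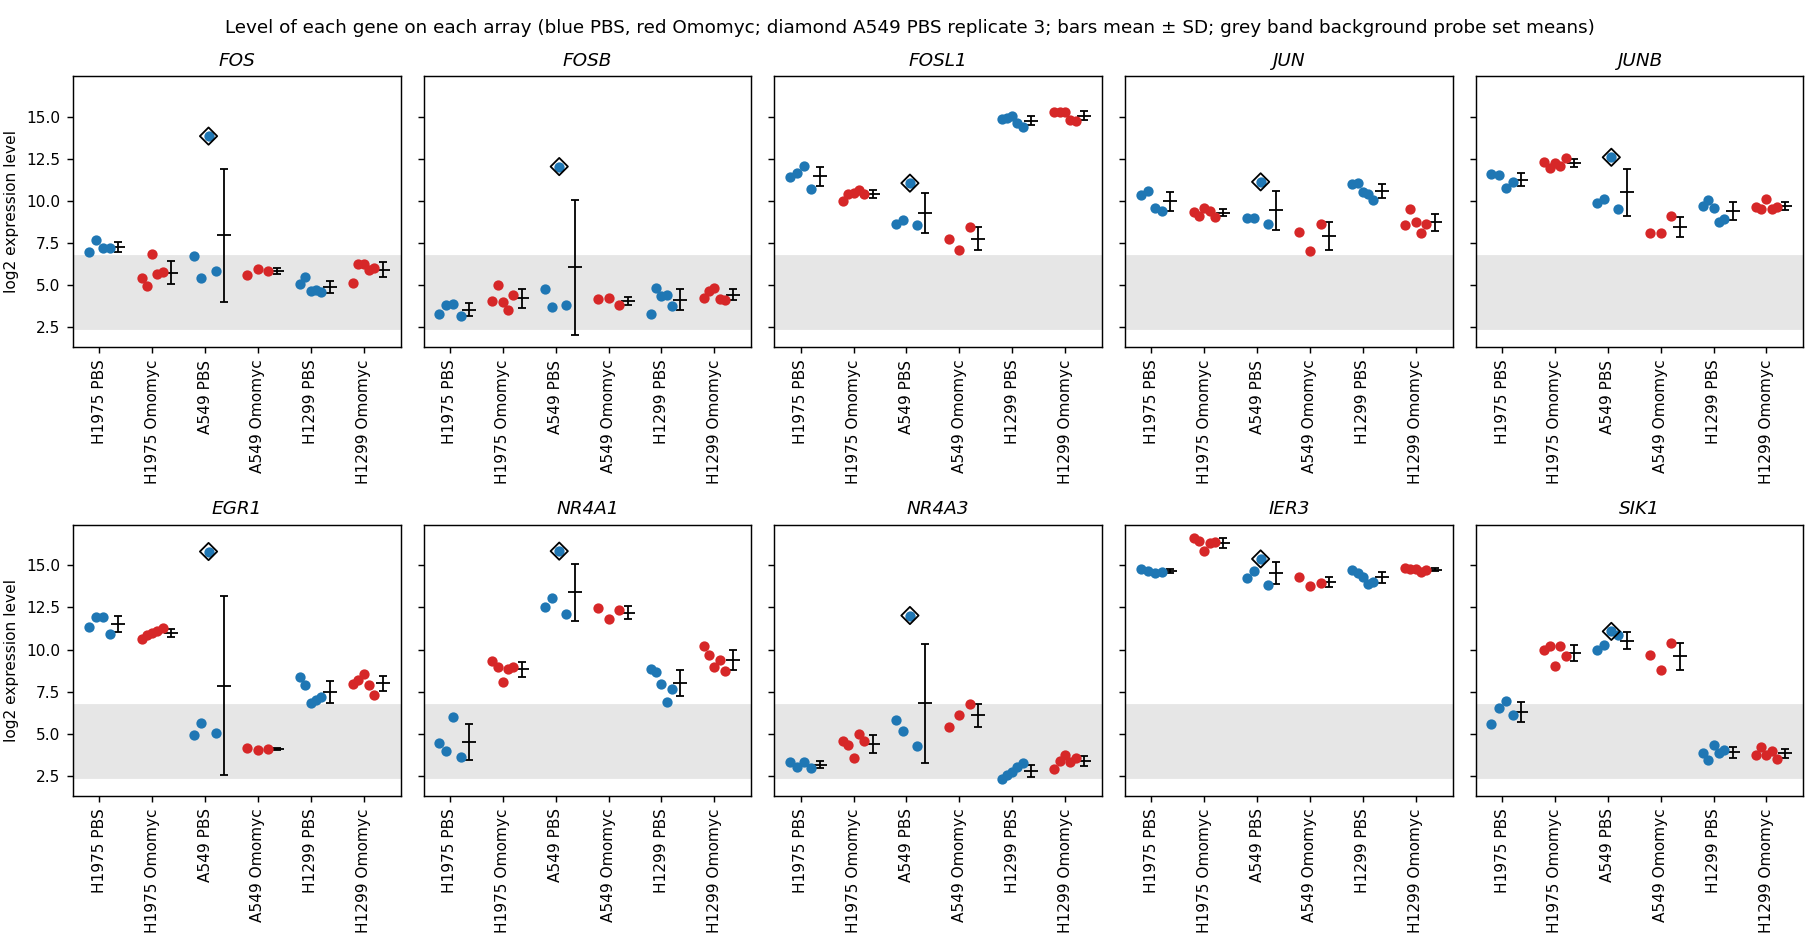
Log2 level of each of the 10 genes on each of the 26 arrays, by line and treatment, with PBS in blue, Omomyc in red, group means ± SD as bars and the range of the background probe set means in grey. On A549 PBS replicate 3, the diamond, EGR1 was at 15.82 while the other 3 A549 PBS arrays were between 4.93 and 5.62, and NR4A1 in H1975 was at 3.58 to 5.98 with PBS and 8.09 to 9.31 with Omomyc.

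Among the AP-1 genes, FOSL1, a FOS-family subunit, differed between all 3 lines. With PBS it was at 14.85, 14.93, 15.05, 14.61 and 14.38 in H1299, at 11.38, 11.63, 12.04 and 10.71 in H1975, and at 8.64, 8.87, 11.04 and 8.56 in A549. H1299 lay above both other lines on every array, by 3.32 ± 0.36 (SE) log2 units over H1975 and 5.48 ± 0.36 over A549 (adjusted p = 7.86e-09 and 1.91e-13). H1975 lay above A549 by 2.16 ± 0.38 (adjusted p = 2.81e-05), but A549 PBS replicate 3 at 11.04 was above H1975 PBS replicate 4 at 10.71. Without A549 PBS replicate 3, A549 lay 6.07 below H1299 and 2.75 below H1975, and both differences were still called. FOS itself was at 6.94, 7.67, 7.20 and 7.16 in H1975, at 5.07, 5.44, 4.65, 4.72 and 4.57 in H1299, and at 6.69, 5.43, 13.84 and 5.80 in A549. Its order thus turned on 1 array. The H1975 minus A549 difference was -0.70 ± 0.97 with that array and 1.27 ± 0.35 without it (adjusted p = 0.648 and 0.00445), and A549 was above H1299 by 3.05 ± 0.92 with it and by 1.08 ± 0.33 without it (adjusted p = 0.00795 and 0.00979). H1975 was above H1299 by 2.35 ± 0.92 (adjusted p = 0.0408), a call that 8 of 10 fits leaving out 1 array lost (2.21 to 2.49, adjusted p up to 0.0913) and that stood at 2.57e-07 without A549 PBS replicate 3. The H1299 levels of FOS lay within the background range. FOSB, which makes both a full-length and a shortened AP-1 subunit, was between 3.16 and 4.83 on all PBS arrays but A549 PBS replicate 3, where it was 12.03, so its 2.53 ± 0.98 lower level in H1975 than in A549 (adjusted p = 0.0426) became 0.53 ± 0.35 lower without that array (adjusted p = 0.257).

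JUN and JUNB, the partners of the FOS family, were expressed in every line. JUN, the classical activating subunit, had PBS means of 10.58 ± 0.43 (SD, n = 5) in H1299, 9.97 ± 0.57 (SD, n = 4) in H1975 and 9.42 ± 1.14 (SD, n = 4) in A549, or 8.86 ± 0.19 (SD, n = 3) in A549 without replicate 3. H1975 and H1299 did not differ beyond the test's threshold (-0.61 ± 0.39, adjusted p = 0.236), and A549 was below H1299 by 1.16 ± 0.39 with that array (adjusted p = 0.0175) and by 1.72 ± 0.33 without it (adjusted p = 0.000101). H1975 was above A549 by 0.55 ± 0.41 with that array, which did not pass (adjusted p = 0.341), and by 1.11 ± 0.35 without it (adjusted p = 0.0121). When A549 PBS replicate 1, 2 or 4 was left out, the JUN difference between A549 and H1299 was -0.89 to -1.01 and not called (adjusted p 0.0646 to 0.0922). JUNB, which often opposes JUN on shared targets, was at 11.59, 11.50, 10.73 and 11.14 in H1975, at 9.71, 10.03, 9.58, 8.71 and 8.92 in H1299 and at 9.84, 10.08, 12.58 and 9.50 in A549. H1975 was above H1299 on every array, by 1.85 ± 0.40 (adjusted p = 0.000341). The A549 position between them depended on the same array: A549 was above H1299 by 1.11 ± 0.40 with it (adjusted p = 0.026) and by 0.42 ± 0.29 without it (adjusted p = 0.274), and was below H1975 by 0.74 ± 0.42 and 1.43 ± 0.30 (adjusted p = 0.187 and 0.000298).

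EGR1 was highest in H1975 on all arrays but one. It was at 11.34, 11.91, 11.93 and 10.93 in H1975, at 8.35, 7.92, 6.83, 7.00 and 7.16 in H1299, and at 4.93, 5.62, 15.82 and 5.02 in A549. With all arrays H1975 was above A549 by 3.68 ± 1.28 and above H1299 by 4.08 ± 1.21 (adjusted p = 0.0222 and 0.00685), while A549 and H1299 differed by 0.40 ± 1.21 (adjusted p = 0.843). With A549 PBS replicate 3 left out, H1975 was above A549 by 6.34 ± 0.33 (adjusted p = 1.74e-15) and A549 was below H1299 by 2.26 ± 0.31 (adjusted p = 7.16e-07). The other A549 PBS levels lay within the background range, so the sizes of these differences are poorly measured. With that array kept, leaving out A549 PBS replicate 1, 2 or 4 took the H1975 and A549 difference to 2.71 to 2.94 and off the call (adjusted p 0.0974 to 0.119).

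NR4A1 and SIK1 were high in A549. NR4A1, a nuclear receptor induced by growth factors and cyclic AMP, was at 12.54, 13.09, 15.85 and 12.11 in A549, at 8.84, 8.64, 7.94, 6.90 and 7.66 in H1299, and at 4.45, 3.95, 5.98 and 3.58 in H1975. The lines did not overlap, and the H1975 arrays lay inside the background range. A549 was above H1975 by 8.90 ± 0.57 and above H1299 by 5.40 ± 0.54, and H1299 was above H1975 by 3.50 ± 0.54 (adjusted p = 1.19e-13, 1.55e-09 and 3.41e-06). Without A549 PBS replicate 3, A549 was above H1975 by 8.09 and above H1299 by 4.58, and both differences were still called. NR4A3 was at 5.80, 5.16, 12.02 and 4.24 in A549 and between 2.31 and 3.34 on all H1975 and H1299 PBS arrays. A549 was above H1299 by 4.04 ± 0.83 with replicate 3 and by 2.30 ± 0.33 without it, and above H1975 by 3.66 ± 0.87 and 1.92 ± 0.34 (adjusted p from 0.00104 to 1.26e-06). These NR4A3 levels, apart from A549 PBS replicate 3, lay within the background range or just below it. SIK1, the salt-inducible kinase, was at 9.94, 10.25, 11.08 and 10.84 in A549, at 5.59, 6.53, 6.97 and 6.10 in H1975, and at 3.83, 3.42, 4.30, 3.85 and 4.05 in H1299. This order, A549 over H1975 by 4.23 ± 0.33 and H1975 over H1299 by 2.41 ± 0.31 (adjusted p = 8.39e-12 and 1.88e-07), held on every array, but the H1299 levels and 3 of the 4 in H1975 lay within the background range, so the sizes are poorly measured. The SIK1 mean in A549 was 10.53 with PBS replicate 3 and 10.34 without it. The reference gene table gives SIK1B as another name of SIK1, and which of the near-identical copies the probe set reads was not tested.

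IER3 was high and alike in the lines. Its PBS range was 14.57 to 14.79 in H1975, 13.82 to 15.38 in A549 and 13.89 to 14.71 in H1299, which placed it above 98.1% of all genes or more in each line. No IER3 difference between PBS groups was called with or without A549 PBS replicate 3 (differences of 0.42 or less, adjusted p 0.165 to 0.898). This does not show that the levels are equal.

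On A549 PBS replicate 3 the 10 genes were all above the mean of the other 3 A549 PBS arrays, and 8 of them by over 2 log2 units (4-fold), where 81 of all 17687 genes (0.458%) were. EGR1 was 10.63 higher, FOSB 7.97, FOS 7.86 and NR4A3 6.95, which were the 4 largest of all 17687 differences on that array. NR4A1 was 3.27 higher, JUNB 2.77, FOSL1 2.35 and JUN 2.26. IER3 at 1.14 higher and SIK1 at 0.73 higher moved least and ranked 808 and 2659. The values singled this array out, so these differences are a description without a test.

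The array was high in relatives of the 10 genes too. NR4A2, the receptor closest to NR4A1 and NR4A3, was 5.50 higher, the stress factor ATF3 5.32, EGR3 3.97, the mRNA decay factor ZFP36 3.72 and the ERK and p38 phosphatase DUSP1 3.37. Of 9 relatives measured (FOSL2, JUND, EGR3, EGR4, NR4A2, IER2, IER5, SIK2 and SIK3), 3 were over 2 log2 units higher, as were 9 of 28 other rapidly induced genes and 0 of 14 upstream regulators such as SRF, the ELK factors and CREB1. Of the marker genes of other cell types and of the line, 0 of 10 were over 2 log2 units higher, and AKR1B10, high in KEAP1-mutant A549 cells, was between 16.8 and 17.3 on the A549 PBS arrays. The mean level of the 10 genes was 13.1 there and 8.23, 8.58 and 8.63 on the other A549 PBS arrays. The array belonged to run 2, as did A549 Omomyc replicate 3, on which no member was over 2 log2 units above the other A549 Omomyc arrays and 5 of 10 were over 1 unit above them, where 9.81% of all genes were. No other array of the series had a member over 2 log2 units above the rest of its group.

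**Figure D2:**
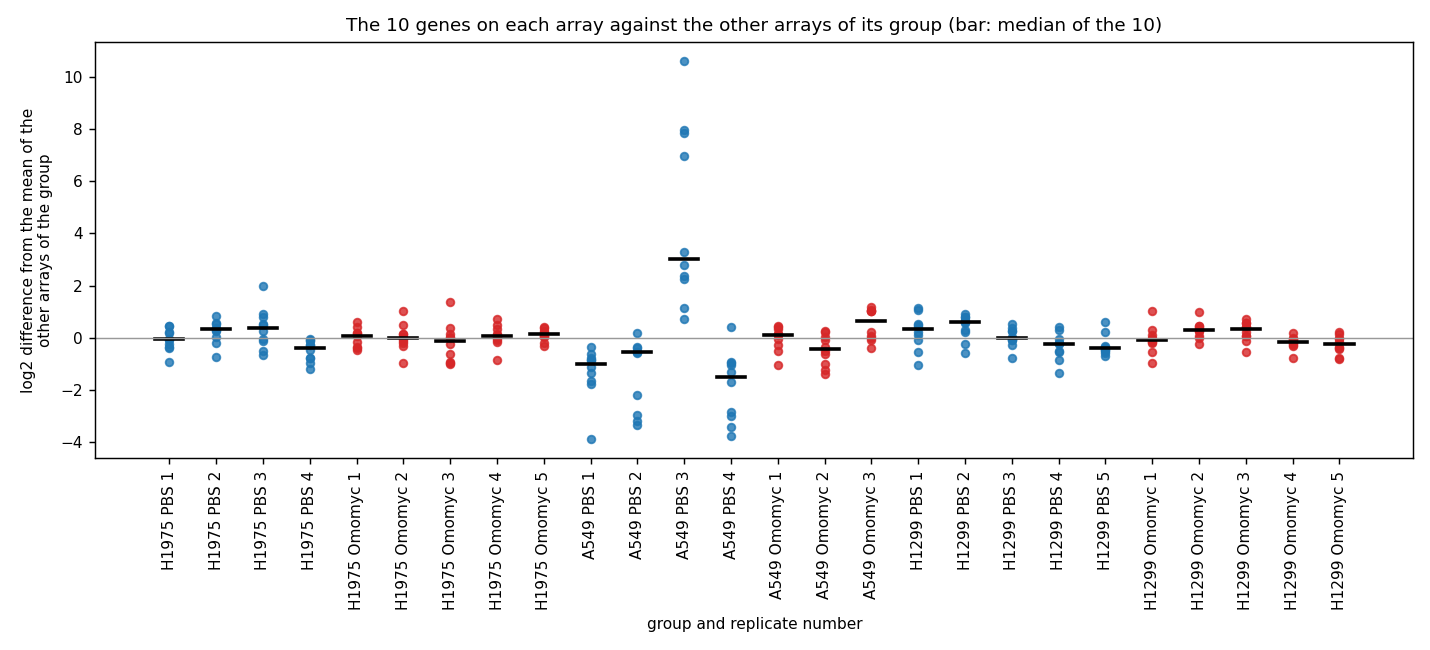
Difference of each of the 10 genes on each array from the mean of the other arrays of its group, in log2 units, with the median of the 10 genes as a bar, PBS in blue and Omomyc in red. The median was 3.02 on A549 PBS replicate 3 and between -0.44 and 0.62 on every array outside the A549 PBS group, and the other A549 PBS arrays lie low because that array enters their comparison.

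The spread of this array also entered the fit for the other lines, since all groups share 1 estimate of the spread. The SD of EGR1 over the A549 PBS arrays was 5.33 with it and 0.38 without it, and that of FOS was 3.97 and 0.65. The standard error of the EGR1 change in H1975 was 1.21 with the array and 0.29 without it, for the same change of -0.56. Both fits are therefore given below for every line. The fit without the array was listed beforehand for A549 and was added for H1975 and H1299 after the data were seen.

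With Omomyc in H1975, the nuclear receptor NR4A1, the kinase SIK1 and the survival factor IER3 rose, by 4.34 ± 0.54, 3.50 ± 0.31 and 1.68 ± 0.24 (SE) log2 units. These were 3 of 10 genes, and 5.57% of all genes rose and 6.28% fell in that comparison. Without A549 PBS replicate 3, JUNB and NR4A3 also rose and FOS and FOSL1 fell, so 5 of 10 rose and 2 fell, where 5.65% of all genes rose and 6.29% fell. The fit on the 9 H1975 arrays alone called the same 7 genes (8.73% of all genes called). The median change of the 10 genes was 0.83, against 0.00 over all genes. In such bulk RNA, a change per cell and a change in which cells were left cannot be told apart. Of the 10 marker genes, AKR1B10, AKR1C1 and KRT8 also fell in H1975 with all arrays, by 0.82 ± 0.21, 1.21 ± 0.32 and 0.56 ± 0.19 (adjusted p = 0.00814, 0.0117 and 0.0486; KRT8 0.0537 without A549 PBS replicate 3). COL1A1 changed by -1.14 ± 0.61 (adjusted p = 0.293). The part of these markers in the results was not tested.

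NR4A1 was at 4.45, 3.95, 5.98 and 3.58 on the PBS arrays of H1975 and at 9.31, 8.95, 8.09, 8.83 and 8.97 on the Omomyc arrays. The groups were over 2 log2 units apart, and every Omomyc array was above the background range while every PBS array was within it. The fitted change was 20.2-fold (adjusted p = 1.83e-06), but its size rests on PBS levels that are poorly measured. SIK1 was at 5.59, 6.53, 6.97 and 6.10 with PBS and at 9.94, 10.20, 9.04, 10.19 and 9.64 with Omomyc, without overlap. The fitted rise was 11.3-fold (adjusted p = 5.95e-09), and its size is also poorly measured, since 3 of the 4 PBS levels lay within the background range. IER3 was at 14.79, 14.67, 14.57 and 14.61 with PBS and at 16.65, 16.45, 15.84, 16.35 and 16.40 with Omomyc. This rise of a gene already among the highest was 3.2-fold, with every Omomyc array at least 1 log2 unit above every PBS array (adjusted p = 1.2e-05). Within runs 1, 2 and 3 the change was 4.68, 3.49 and 5.38 for NR4A1, 4.48, 2.86 and 3.54 for SIK1, and 1.76, 1.48 and 1.79 for IER3. Run 1 had 1 PBS array and run 3 had 1 array of each treatment, so there a lone array was taken to vary like the other groups.

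The AP-1 genes of H1975 went in both directions. JUNB was at 11.59, 11.50, 10.73 and 11.14 with PBS and at 12.30, 11.97, 12.24, 12.09 and 12.56 with Omomyc, without overlap. Its change was 0.99 ± 0.40 with all arrays (adjusted p = 0.122), and with the smaller error without A549 PBS replicate 3 it was called (± 0.26, adjusted p = 0.0117). FOS was at 6.94, 7.67, 7.20 and 7.16 with PBS and at 5.42, 4.94, 6.81, 5.63 and 5.77 with Omomyc. Every Omomyc array was below every PBS array, and the change of -1.53 was ± 0.92 with all arrays (adjusted p = 0.369) and ± 0.31 without A549 PBS replicate 3 (adjusted p = 0.000953). Of the Omomyc levels, 4 of 5 lay within the background range. FOSL1 was at 11.38, 11.63, 12.04 and 10.71 with PBS and at 9.98, 10.39, 10.48, 10.63 and 10.39 with Omomyc, also without overlap though PBS replicate 4 was within 0.1 of the highest Omomyc array. Its change of -1.07 ± 0.36 missed the threshold with all arrays (adjusted p = 0.0531) and passed it without A549 PBS replicate 3 (adjusted p = 0.00491). In runs 1, 2 and 3 the change was 0.55, 1.05 and 1.42 for JUNB, -1.76, -1.22 and -1.39 for FOS, and -1.19, -1.28 and -0.32 for FOSL1.

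The remaining members of H1975 were JUN, EGR1, FOSB and NR4A3. NR4A3 was at 3.31, 3.00, 3.34 and 2.93 with PBS and at 4.54, 4.34, 3.57, 4.96 and 4.54 with Omomyc, all within the background range and without overlap. Its change was 1.25 ± 0.83 with all arrays (adjusted p = 0.435) and ± 0.30 without A549 PBS replicate 3 (adjusted p = 0.00545), and 1.13, 1.10 and 1.61 in runs 1, 2 and 3. JUN, at 9.39 to 10.58 with PBS and 9.03 to 9.58 with Omomyc, changed by -0.68 ± 0.39 and was not called in either fit (adjusted p = 0.332 and 0.173). EGR1, at 10.93 to 11.93 and 10.65 to 11.26, changed by -0.56 ± 1.21 (adjusted p = 0.884, and 0.249 without that array), and FOSB stayed within 3.16 to 5.00 on all 9 arrays. The groups overlapped for JUN, EGR1 and FOSB. With runs blocked in the fit, 5 of 10 genes passed, IER3, JUNB, NR4A1 and SIK1 upwards and FOSL1 downwards, where 19.2% of all genes were called.

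**Figure D3:**
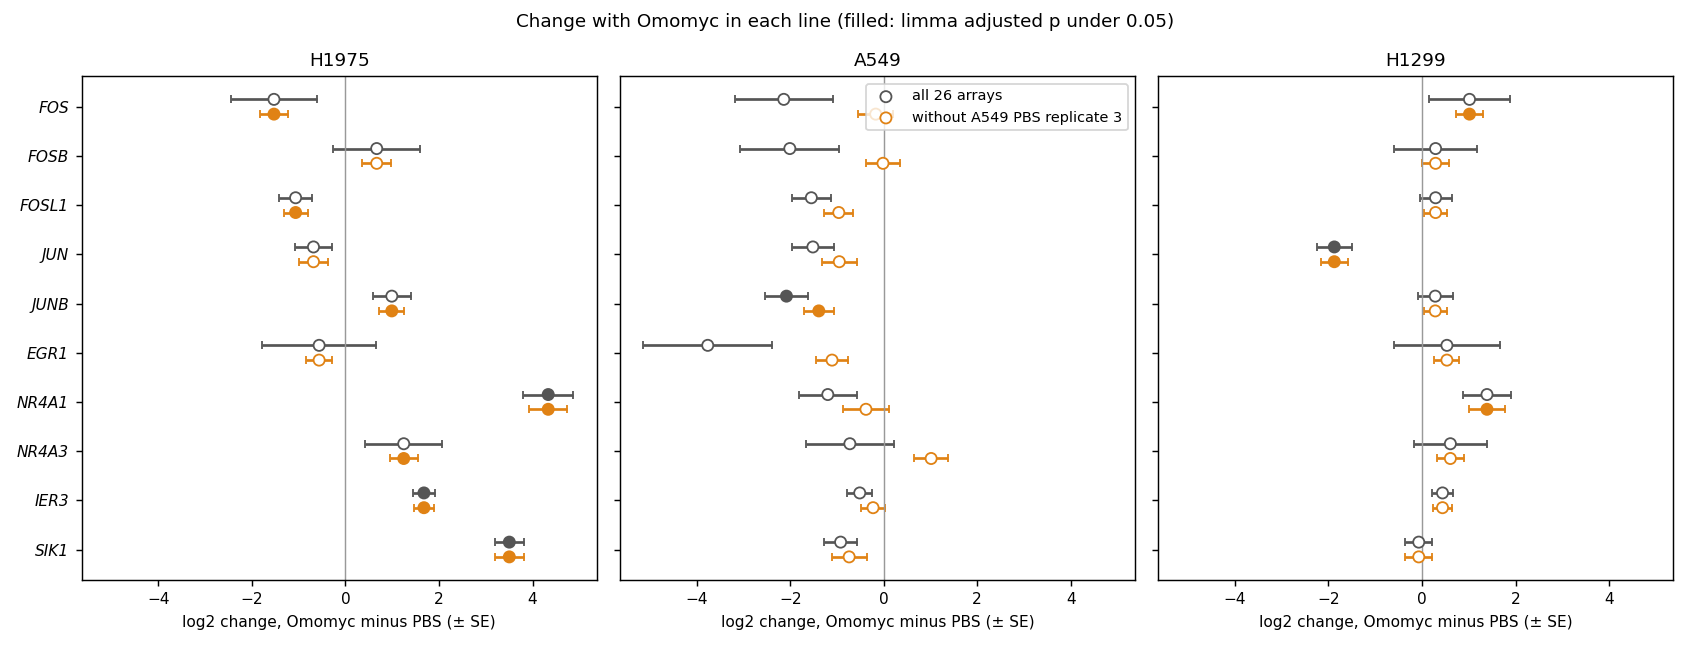
Log2 change with Omomyc (Omomyc minus PBS, ± SE of the limma fit) of each gene in H1975, A549 and H1299, with all 26 arrays in grey and without A549 PBS replicate 3 in orange, filled where the adjusted p was under 0.05. NR4A1 and SIK1 stand at 4.34 and 3.50 in H1975, and the error of FOS, FOSB, EGR1 and NR4A3 shrinks in every line when the array is left out.

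In H1299, JUN fell with Omomyc by 1.87 ± 0.37 log2 units (3.67-fold), and it was the 1 gene of 10 called with all arrays, where 4.35% of all genes rose and 4.52% fell. Without A549 PBS replicate 3, FOS and NR4A1 also rose, so 2 of 10 rose and 1 fell, where 4.43% of all genes rose and 4.55% fell. The fit on the 10 H1299 arrays alone also called 3 genes, JUN, FOS and NR4A1 (7.66% of all genes called). The median change of the 10 genes was 0.37 against 0.00 over all genes.

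JUN was at 10.97, 11.04, 10.49, 10.37 and 10.01 on the PBS arrays of H1299 and at 8.58, 9.51, 8.76, 8.10 and 8.59 on the Omomyc arrays. The groups did not overlap, and the adjusted p was 0.00104. The change was -2.39, -1.64 and -1.85 in runs 1, 2 and 3, of which run 1 held 1 array of each treatment and was not called (adjusted p = 0.0681). NR4A1 was at 8.84, 8.64, 7.94, 6.90 and 7.66 with PBS and at 10.21, 9.67, 8.94, 9.36 and 8.75 with Omomyc. Its groups overlapped at 1 PBS array, and the change of 1.39 was ± 0.51 with all arrays (adjusted p = 0.0933) and ± 0.38 without A549 PBS replicate 3 (adjusted p = 0.0188). It was 1.37, 1.01 and 1.78 in runs 1, 2 and 3. FOS was at 5.07, 5.44, 4.65, 4.72 and 4.57 with PBS and at 5.13, 6.26, 6.25, 5.88 and 6.02 with Omomyc, all within the background range. One Omomyc array overlapped the PBS group, and the change of 1.02 was ± 0.87 with all arrays (adjusted p = 0.63) and ± 0.29 without A549 PBS replicate 3 (adjusted p = 0.0234). Within runs it was 0.05, 1.21 and 1.30.

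The other 7 genes of H1299 were not called in either fit. FOSL1 was at 14.38 to 15.05 with PBS and 14.71 to 15.28 with Omomyc (0.29 ± 0.34), IER3 at 13.89 to 14.71 and 14.58 to 14.82 (0.44 ± 0.22), and EGR1 at 6.83 to 8.35 and 7.32 to 8.54 (0.53 ± 1.14). JUNB changed by 0.28 ± 0.38, NR4A3 by 0.61 ± 0.78, FOSB by 0.29 ± 0.88 and SIK1 by -0.07 ± 0.29. SIK1 stayed between 3.42 and 4.30 on all 10 arrays, within the background range. With runs blocked, and with the arrays blocked by replicate number, NR4A1 was called beside JUN (adjusted p = 0.0322 and 0.0356), so 2 of 10 genes passed where 15.9% and 12.7% of all genes were. The H1299 pairs also lay within runs, and their correlations with the run removed were -0.148 to 0.046, so pairs and runs cannot be told apart.

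In A549, JUNB fell with Omomyc by 2.08 ± 0.46 log2 units (4.23-fold) and was the 1 gene of 10 called with all arrays, where 0.916% of all genes rose and 0.277% fell. All 10 changes were negative with all arrays, with a median of -1.53 against 0.04 over all genes. Leaving out PBS replicate 3, the median was -0.56 against 0.10, JUNB fell by 1.39 ± 0.32, no other gene was called, and 0.899% of all genes rose and 0.164% fell. Of the calls over all genes 76.8% were upwards, and 66.2% after quantile normalization.

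JUNB was at 9.84, 10.08, 12.58 and 9.50 on the A549 PBS arrays and at 8.09, 8.07 and 9.10 on the Omomyc arrays, without overlap. The adjusted p was 0.014 with all arrays and 0.0247 without PBS replicate 3. It was 0.109 without Omomyc replicate 1 (-1.91) and 0.096 without Omomyc replicate 2 (-1.91), and the fit on the 7 A549 arrays alone called none of the 10 genes (JUNB adjusted p = 0.24, 0.458% of all genes called); 4 of them, all lower with Omomyc, had an unadjusted limma p under 0.05. FOSL1 was at 8.64, 8.87, 11.04 and 8.56 with PBS and at 7.71, 7.06 and 8.42 with Omomyc. JUN was at 8.94, 9.00, 11.12 and 8.64 with PBS and at 8.12, 6.99 and 8.62 with Omomyc. Every Omomyc array was below every PBS array for both genes, narrowly so at Omomyc replicate 3. Their changes were -1.55 ± 0.41 and -1.52 ± 0.45 with all arrays (adjusted p = 0.0603 and 0.113) and -0.96 ± 0.31 and -0.95 ± 0.37 without PBS replicate 3 (adjusted p = 0.186 and 0.352).

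The A549 numbers pair the arrays by the correlation of their deviations, and each pair lay in 1 run. With the replicate block, FOSL1, JUN and JUNB fell, by 1.79 ± 0.30, 1.78 ± 0.33 and 2.41 ± 0.32 (adjusted p = 0.00383, 0.00823 and 0.000507), 3 of 10 genes where 1.28% of all genes passed. PBS replicate 4 has no partner and does not count there, while PBS replicate 3 does. This block was not fitted without PBS replicate 3, so the size of these falls includes that array. Blocking on the run, the same 3 genes fell, by 1.64 ± 0.31, 1.65 ± 0.36 and 2.16 ± 0.41 (adjusted p = 0.00193, 0.00682 and 0.00183), where 2.84% of all genes were called. Within run 1, the 2 PBS and 2 Omomyc arrays without replicate 3, the changes were -1.37, -1.42 and -1.88, and JUNB was called (adjusted p = 0.0193).

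EGR1, FOS, FOSB and NR4A3 show how far 1 array carries the A549 comparison. EGR1 was at 4.93, 5.62, 15.82 and 5.02 with PBS and at 4.17, 4.02 and 4.07 with Omomyc. The change was -3.76 ± 1.38 with all arrays (adjusted p = 0.291) and -1.11 ± 0.35 without PBS replicate 3 (adjusted p = 0.165). Leaving out that array and blocking on the run called it (-1.26 ± 0.31, adjusted p = 0.0285) beside FOSL1, JUN and JUNB, where 2.12% of all genes were called. The Omomyc levels were below every PBS level, and all but replicate 3 of PBS lay within the background range. FOS was at 6.69, 5.43, 13.84 and 5.80 with PBS and at 5.60, 5.96 and 5.85 with Omomyc, and the groups overlapped. Its change went from -2.14 ± 1.05 to -0.17 ± 0.37, and that of FOSB from -2.01 ± 1.06 to -0.02 ± 0.37. NR4A3 was at 5.80, 5.16, 12.02 and 4.24 with PBS and at 5.37, 6.11 and 6.76 with Omomyc, and its change turned from -0.72 ± 0.94 to 1.01 ± 0.37 (adjusted p = 0.956 and 0.277). In run 2, where replicate 3 is the only array of each treatment, the EGR1 change was -11.8, against -1.18 in run 1. NR4A1 (12.46, 11.79 and 12.35 with Omomyc, changes of -1.20 ± 0.62 and -0.38 ± 0.50), SIK1 (9.66, 8.77 and 10.38, -0.92 ± 0.35 and -0.74 ± 0.37) and IER3 (14.32, 13.78 and 13.95, -0.51 ± 0.27 and -0.23 ± 0.25) were not called in either fit.

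**Figure D4:**
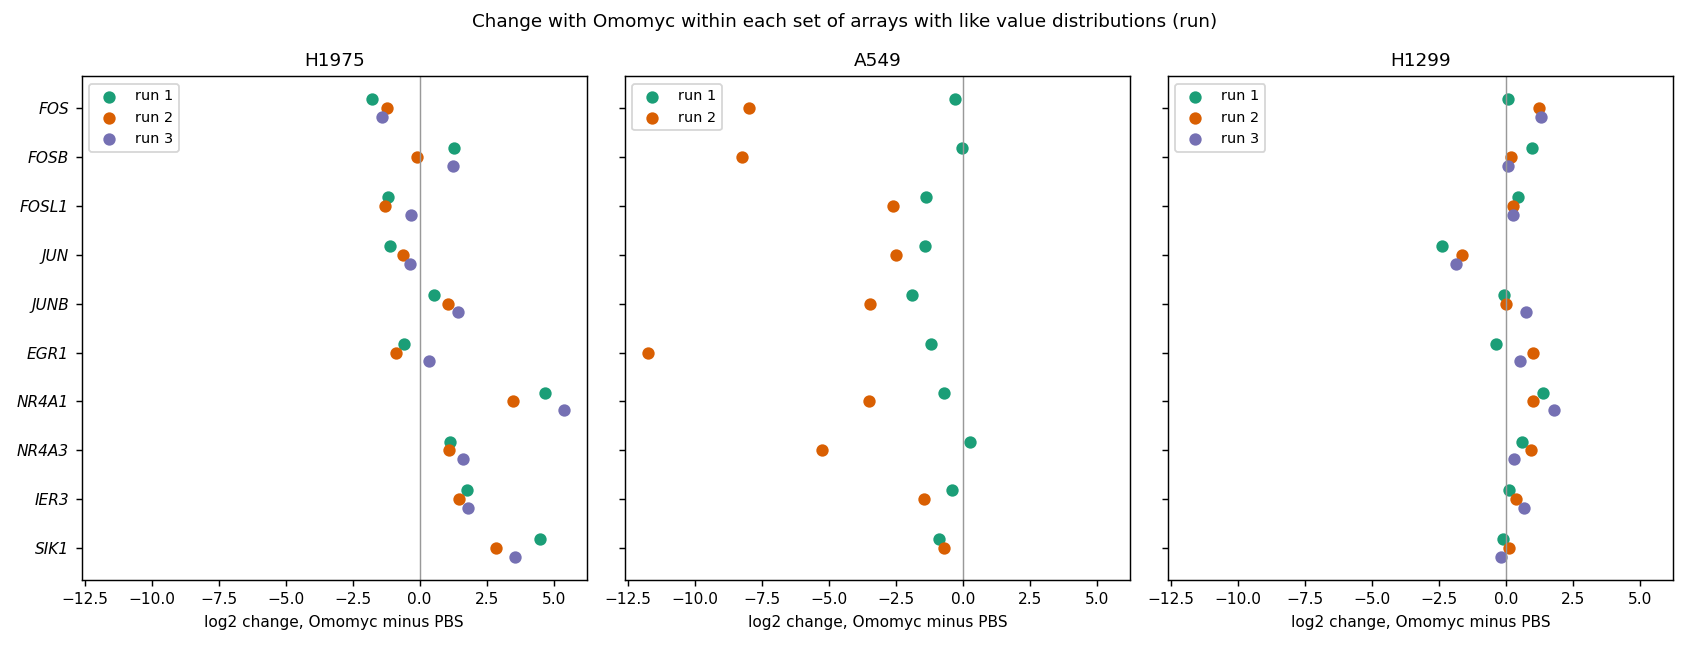
Log2 change with Omomyc (Omomyc minus PBS) of each gene within each set of arrays with like value distributions (run), by line, as coloured points; A549 has no Omomyc array in run 3. In A549 the run 2 points rest on PBS replicate 3, with EGR1 at -11.8 against -1.18 in run 1, while NR4A1 in H1975 was 4.68, 3.49 and 5.38 in the runs.

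The responses of the lines were compared by the difference of their changes. H1975 differed from A549 in IER3 (2.19 ± 0.36), JUNB (3.07 ± 0.61), NR4A1 (5.53 ± 0.82) and SIK1 (4.43 ± 0.47), with adjusted p of 0.000305, 0.00227, 8.19e-05 and 6.24e-07, 4 of 10 genes where 4.62% of all genes differed. The same 4 were called without A549 PBS replicate 3 (1.91, 2.38, 4.72 and 4.24; 4.07% of all genes). H1975 differed from H1299 in IER3 (1.24 ± 0.33), NR4A1 (2.95 ± 0.74) and SIK1 (3.57 ± 0.43), with adjusted p of 0.0199, 0.0141 and 1.74e-06, where 5.7% of all genes differed. Without A549 PBS replicate 3, FOS (-2.55 ± 0.42) and FOSL1 (-1.36 ± 0.35) were also called (adjusted p = 0.000213 and 0.0173; 5.76% of all genes), with FOS lower in H1975 and higher in H1299. Within runs 1, 2 and 3, H1975 minus H1299 was 1.65, 1.12 and 1.10 for IER3, which was called in no run alone (adjusted p 0.168 to 0.231), 3.30, 2.48 and 3.61 for NR4A1, not called in run 2 (adjusted p = 0.107), and 4.59, 2.77 and 3.75 for SIK1, called in each. With all arrays and no block, JUNB was the 1 gene in which A549 differed from H1299 (-2.37 ± 0.59, adjusted p = 0.0272; 2.47% of all genes), a call lost without A549 Omomyc replicate 1 or 2 (-2.20 and -2.19, adjusted p = 0.0966 and 0.085). In the fit without A549 PBS replicate 3, EGR1 was called beside it (-1.64 ± 0.44 and -1.67 ± 0.41, adjusted p = 0.0454 and 0.0259; 2.17% of all genes). The replicate block pairs arrays within runs in both lines and keeps A549 PBS replicate 3. With it, FOSL1 (-2.08 ± 0.38), JUNB (-2.70 ± 0.41) and NR4A1 (-3.01 ± 0.69) were called (adjusted p = 0.005, 0.0011 and 0.0206; 3.23% of all genes). Blocking on the run instead, IER3 joined these 3 genes (-1.04 ± 0.32, adjusted p = 0.0468; 6.41% of all genes). NR4A1 rose in H1975 and, without that array, in H1299, and SIK1 and IER3 rose in H1975 and were not called in the other lines. JUN fell in H1299, and its change there did not differ from that in H1975 or A549 beyond the threshold with all arrays (adjusted p = 0.251 and 0.898). Leaving out A549 PBS replicate 3 and blocking on the run called JUN between H1975 and H1299 (1.20 ± 0.34, adjusted p = 0.0195; 11.8% of all genes).

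**Figure D5:**
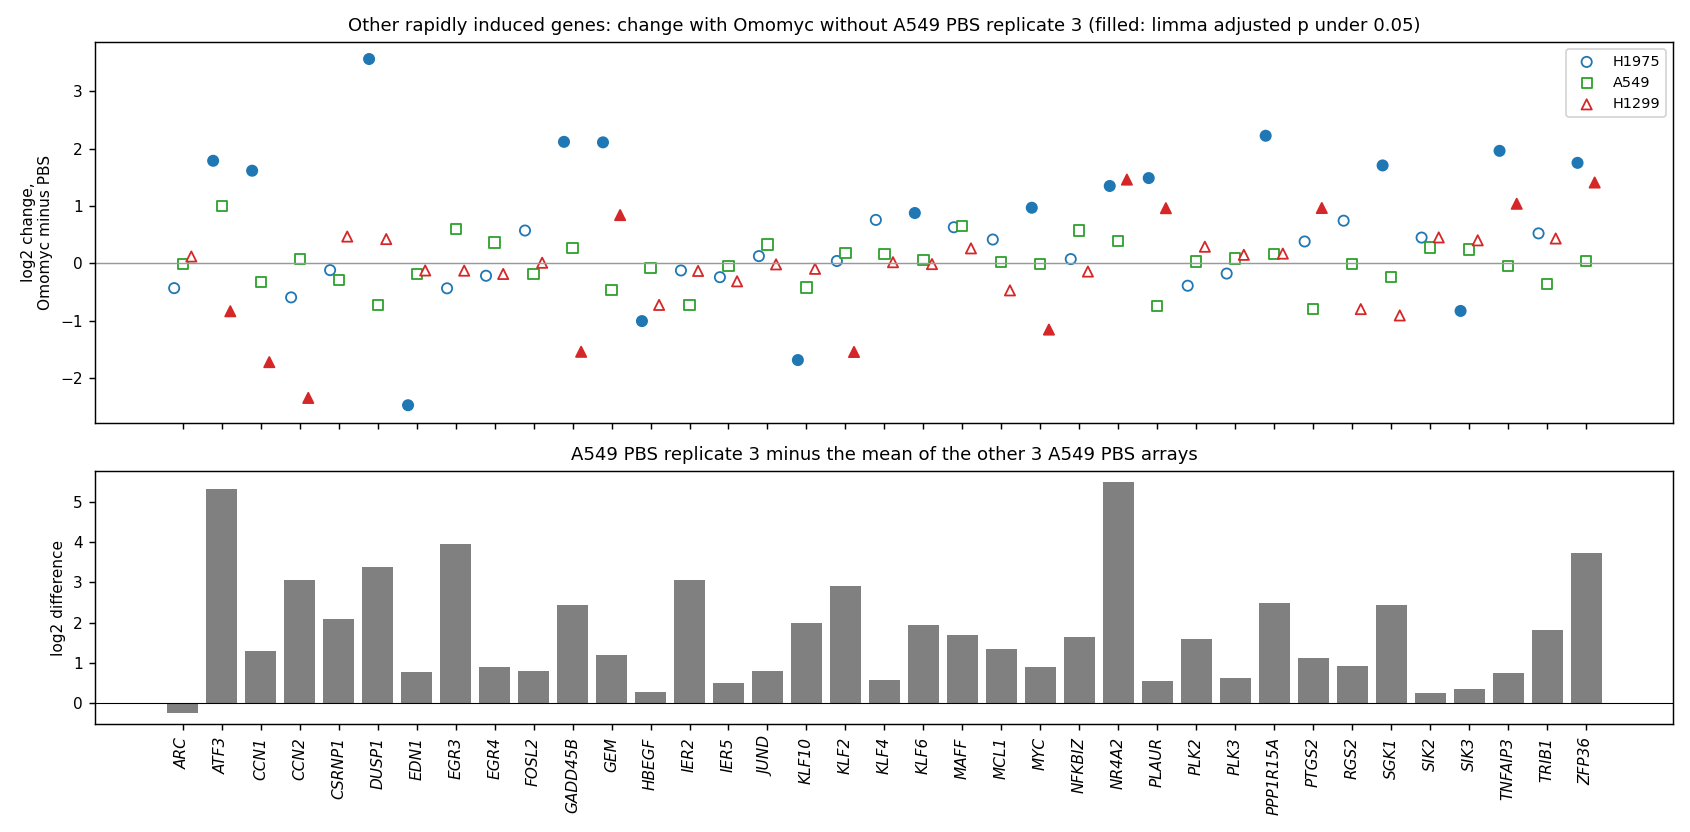
Upper panel, log2 change with Omomyc of 9 relatives and 28 other rapidly induced genes in each line without A549 PBS replicate 3, filled where the limma adjusted p was under 0.05; lower panel, difference of that array from the mean of the other 3 A549 PBS arrays. DUSP1 rose by 3.56 in H1975, CCN2 fell by 2.34 in H1299, and NR4A2 and ATF3 are the tallest bars at 5.50 and 5.32.

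Other genes of the immediate early program were taken from lists, also chosen with earlier results of these data known. Their counts stand beside the shares of all genes as a description, not as a test of the lists. Among the 28 other rapidly induced genes measured, 10 rose and 3 fell in H1975, 3 rose and 4 fell in H1299, and none rose and 1 fell in A549. Of all genes, 5.57% rose and 6.28% fell in H1975, 4.35% and 4.52% in H1299, and 0.916% and 0.277% in A549. The medians were 0.69, 0.00 and -0.40, against 0.00, 0.00 and 0.04 over all genes. In H1975, DUSP1, which switches off ERK and p38, rose by 3.56 ± 0.48 (adjusted p = 6.85e-06) and the urokinase receptor PLAUR by 1.49 ± 0.20 (adjusted p = 3.81e-06). Endothelin EDN1 fell by 2.47 ± 0.32 and the repressor KLF10 by 1.68 ± 0.30 (adjusted p = 2.92e-06 and 0.000225). DUSP1 was at 9.37 to 10.50 with PBS and 12.46 to 14.39 with Omomyc, without overlap.

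In H1299, PLAUR rose by 0.96 ± 0.18 and the NF-kB inhibitor TNFAIP3 by 1.04 ± 0.27 (adjusted p = 0.000754 and 0.0109), while the matrix protein CCN1 fell by 1.72 ± 0.27 and MYC by 1.15 ± 0.19 (adjusted p = 6.59e-05 and 0.000135). In H1975, CCN1 and MYC instead rose, by 1.61 ± 0.28 and 0.97 ± 0.20 (limma adjusted p = 0.000198 and 0.00119), and neither was called in A549 (adjusted p = 0.588 and 0.915). PLAUR, at 9.75 to 10.44 with PBS and 8.90 to 9.58 with Omomyc in A549, fell by 0.88 ± 0.22 there (adjusted p = 0.0445), and by 0.74 ± 0.23 without PBS replicate 3, which was not called (adjusted p = 0.159). Without that array the counts were 12 up and 3 down in H1975, 5 up and 6 down in H1299 and none in A549, where 3 had an unadjusted limma p under 0.05 (1 up and 2 down). Of all genes in that fit, 5.65% rose and 6.29% fell in H1975, 4.43% and 4.55% in H1299, and 0.899% and 0.164% in A549. In that fit the decay factor ZFP36 rose by 1.41 ± 0.25 in H1299 (adjusted p = 0.000311), the growth arrest gene GADD45B rose by 2.12 ± 0.21 in H1975 and fell by 1.54 ± 0.20 in H1299 (adjusted p = 6.56e-08 and 7.66e-06), and CCN2 fell by 2.34 ± 0.23 in H1299 (adjusted p = 1.28e-07).

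Of the 9 relatives, SIK3 alone was called with all arrays, with a fall of 0.83 ± 0.21 in H1975 (adjusted p = 0.00793). NR4A2 was called without A549 PBS replicate 3, with rises of 1.35 ± 0.40 in H1975 and 1.46 ± 0.38 in H1299 (adjusted p = 0.0238 and 0.0113), at levels of 2.79 to 6.45 that lie within the background range. Among 14 upstream regulators, MAPK3, the kinase ERK1, and the CREB coactivator CRTC2 rose in H1975 by 0.93 ± 0.25 and 0.83 ± 0.27 (adjusted p = 0.0134 and 0.0378), and the coactivator CRTC1 fell by 1.11 ± 0.30 (adjusted p = 0.0124). CRTC2 and CRTC3 rose in H1299 by 1.09 ± 0.25 and 1.18 ± 0.28 (adjusted p = 0.00426 and 0.00562), and none of the 14 was called in A549, where the limma p was not under 0.05 for any of them before adjustment either. Measured genes of these lists without a named value entered the counts and are not described singly.

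How the 10 genes varied with their mean depended on A549 PBS replicate 3. Line and run were removed, but not treatment, so changes with Omomyc enter these values. The Pearson correlation of a gene with the mean of the 10 genes over 26 arrays was 0.93 for FOSB, 0.92 for EGR1, 0.89 for NR4A3, 0.88 for JUNB and 0.77 for FOS. For IER3, NR4A1, SIK1, FOSL1 and JUN it was 0.71, 0.69, 0.45, 0.60 and 0.40. Over the 25 arrays without A549 PBS replicate 3, FOSB, EGR1, NR4A3, JUNB and FOS were at 0.47, 0.24, 0.45, 0.81 and -0.33. There IER3, NR4A1 and SIK1 were at 0.89, 0.88 and 0.82, and FOSL1 and JUN at -0.06 and -0.17. Each gene is part of that mean, the arrays share runs and treatments, and the values are a description. The 6 other genes most alike with the mean over 26 arrays were IER2 (0.87), DUSP5 (0.85), HES1 (0.84), PON1 (0.84), ZFP36 (0.84) and TRIB1 (0.83). Over 25 arrays they were PCIF1 (0.91), ARHGEF5 (0.90), GRAMD1A (0.89), ACKR3 (0.87), HIVEP2 (0.86) and ITGA5 (0.86), with no gene in common.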

How the data were processed

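Biotin-labelled RNA of 26 samples in 6 groups was measured on 1-colour arrays. The deposited values are log2 levels per probe set, made with RMA and Partek according to the submitters' processing notes, which give no versions. Neither the genome build nor whether the arrays were normalized as 1 set is given in the sources used here. Probe sets were named through the platform annotation, with 17709 of 24351 matched to 1 gene and 6642 unnamed, and for 20 genes the brightest of several was used. limma 3.58.1 in R 4.3.3 fitted 1 coefficient per group to all arrays (lmFit and eBayes), with Benjamini-Hochberg adjustment over 17687 genes and calls at an adjusted p under 0.05. On simulated data the fit called 41%, 28% and 52% of changes of 1 log2 unit in H1975, A549 and H1299. It called 94%, 91% and 99% of changes of 2 units. A gene that was not called may therefore still have changed by about 1 unit. Runs are 3 clusters of the arrays' sorted values (average linkage). Numbers were taken to pair PBS and Omomyc arrays where the correlation of deviations from the group means was over 0.1 for every pair: 0.11 to 0.20 in A549 and 0.26 to 0.39 in H1299, but -0.20 to 0.33 in H1975. With the run removed these were -0.26 to 0.08, so pairing by number and the run cannot be told apart. The 10 genes and the lists were chosen with earlier results of these data known. Of each list and line, up to 2 rising and 2 falling genes with the smallest p are named, and other genes named from the A549 array are the highest on it. CCN1 and MYC, named for H1299, are also given for H1975 and A549. Promoter sequences are from RefSeq GRCh38.p14. Alternatives were median centring, quantile normalization, the mean of probe sets, leaving out the dimmest 30% of genes, the compared groups alone, trend and robust settings, array weights, blocks, each run alone and leaving out each array. The number of arrays limits the precision.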

Additional observations from a re-analysis of the deposited data

Results flagged for a closer look

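Of 50 sets of arrays checked (a gene in a group of 4 or 5 arrays), 6 had 1 array far from the others by a rule that flags about 1 in 20, and 5 of the 6 were A549 PBS replicate 3. That array had been singled out by its values, and the genes on it were high together, so the 5 are a description without a test. On that array FOS was at 13.84, FOSB at 12.03, FOSL1 at 11.04, JUN at 11.12 and EGR1 at 15.82. The sixth was JUNB on H1299 Omomyc replicate 3, at 10.11 with the other 4 arrays between 9.49 and 9.64.

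The lines differed in their response to Omomyc by a test of the difference in 8 cases. H1975 minus A549 was 2.19 for IER3, 3.07 for JUNB, 5.53 for NR4A1 and 4.43 for SIK1. H1975 minus H1299 was 1.24 for IER3, 2.95 for NR4A1 and 3.57 for SIK1. A549 minus H1299 was -2.37 for JUNB. These comparisons share arrays of a line with each other, so the 8 are not independent.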

How the results depend on the processing

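The counts of called genes among the 10 moved with the setting. In H1975, 3 were called with all arrays (11.8% of all genes), 5 with median centring, the run as a block, the replicate block or run 3 alone (14.6%, 19.2%, 14.6% and 4.41%), and 7 on the H1975 arrays alone, without A549 PBS replicate 3, and with runs blocked and that array left out (8.73%, 11.9% and 19.2%). In A549, 1 was called with all arrays (1.19% of all genes). The count was 3 with quantile normalization, median centring, array weights, the run as a block or the replicate block (1.99%, 1.54%, 2.7%, 2.84% and 1.28%). It was 2 with trend and robust settings (1.25%) and 4 with the run as a block without PBS replicate 3 (2.12%). On the A549 arrays alone it was 0 (0.458%, with 4 at an unadjusted limma p under 0.05). Run 2 alone holds 1 A549 array of each treatment, with replicate 3 as PBS, so no count is given for it. The EGR1 change there was -11.8. In H1299, 1 was called with all arrays (8.87% of all genes), 2 with quantile normalization, median centring, the run as a block or the replicate block (13.1%, 1949 genes, 15.9% and 12.7%), 3 on the H1299 arrays alone, in run 3 alone and with the run as a block without A549 PBS replicate 3 (7.66%, 6.75% and 16.0%), and 0 in run 1 alone (0.458%; 2 unadjusted). Leaving out 1 array at a time gave 3 to 7 in H1975, 0 to 2 in A549 and 1 to 3 in H1299, and 5 to 8, 5 to 6 and 6 to 7 for the PBS comparisons H1975 with A549, H1975 with H1299 and A549 with H1299.

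For the response differences, H1975 with A549 gave 4 genes (4.62% of all genes). No count is given for run 2 alone, where A549 PBS replicate 3 is the only A549 PBS array. H1975 with H1299 gave 3 (5.7%), 5 on the compared groups alone or with the replicate block (5.11% and 8.29%), 7 with runs blocked and A549 PBS replicate 3 left out (11.8%), and 2 in runs 1 and 2 alone (0.639% and 2.88%). JUN was called there with the replicate block (1.25, adjusted p = 0.0493). Among its 33 alternatives IER3 was called in 30 and NR4A1 in 32. A549 with H1299 gave 1 (2.47%), and 3 with quantile normalization, median centring, array weights or the replicate block (4.8%, 3.46%, 4.03% and 3.23%). It gave 2 with trend and robust settings (2.56%) and 4 with the run as a block with or without A549 PBS replicate 3 (6.41% and 5.09%). On the compared groups alone it gave 0 (2.25%, with 4 at an unadjusted limma p under 0.05). No count is given for run 1 alone, with 1 H1299 array of each treatment, or for run 2 alone. Leaving out 1 array at a time gave 4 throughout, 3 to 5 and 0 to 3. The cause of these shifts was not tested beyond the array left out. The numbers do not pair the H1975 arrays, so its blocked count stands here only. Among the Omomyc changes, the replicate block ended no call of the unblocked fit with all arrays. FOS and NR4A3 in H1975 and FOS in H1299, called without A549 PBS replicate 3, were not called with the block, which keeps that array (limma adjusted p = 0.247, 0.209 and 0.454).

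With Omomyc, these signs turned, none in a gene called with all arrays. In H1975, FOSB was -0.10 in run 2 alone and EGR1 0.33 in run 3 alone. In A549, NR4A3 was 0.26 in run 1 alone, 1.01 without PBS replicate 3 (-1.58 to 1.01 leaving out 1 array) and 0.99 with the run blocked as well. Its change was -5.26 in run 2 alone, where PBS is replicate 3. In H1299, JUNB was -0.082 and -0.004 in runs 1 and 2, EGR1 -0.39 in run 1, and SIK1 0.093 in run 2, 0.033 without PBS replicate 3 and 0.009 without Omomyc replicate 5 (-0.19 to 0.033 leaving out 1 array). Between PBS groups, FOS in H1975 minus A549 turned to 0.064 with array weights, 0.88 and 1.37 in runs 1 and 3, 1.27 without A549 PBS replicate 3 (-1.53 to 1.27 leaving out 1 array) and 1.01 with the run blocked as well. EGR1 in A549 minus H1299 turned to -0.45, -3.08, -2.06, -2.26 and -2.24 under the same settings. In run 2 alone, where A549 PBS is replicate 3, H1975 minus A549 was -1.03 for JUN, -1.46 for JUNB and -3.90 for EGR1, and A549 minus H1299 was 0.35 for JUN. IER3, NR4A1 and SIK1 were called in H1975 under all 23 alternatives, with adjusted p up to 0.0216, 0.0026 and 0.00278. JUN in H1299 was called under 23 of 24 (adjusted p up to 0.0681) and JUNB in A549 under 16 of 19 (up to 0.24). FOS, FOSL1, JUNB and NR4A3 in H1975 were called under 3, 12, 7 and 4 of 23. Median centring moved the median of all genes in H1975 from 0.0038 to 0.12, and 60.2% of the calls over all genes were then upwards, against 47.0% as deposited. The number of arrays and the background range of dim genes (FOSB, NR4A3, FOS and EGR1 in A549, FOS and SIK1 in H1299, NR4A1 and SIK1 in H1975 with PBS) limit what can be read.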
